A study of Mus musculus with 15 samples.

Results

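The genes described here encode 10 chromatin remodelling ATPases outside the SWI/SNF complex: Chd1, Chd2, Chd4, Chd7, Chd8 and Chd9 of the CHD family, Smarca5 of the ISWI family, and Ino80, Srcap and Ep400 of the INO80 family. They were chosen by name, through the Ensembl identifier of each gene, and not by any measured value. Earlier results of these data were known when they were chosen. Chd3, Chd5, Chd6 and Chd1l were also measured but are not among the 10, and are counted with the partners. All 10 were listed among the 13501 genes of the table that holds OE and EV and among the 13669 genes of the table that holds the hairpin lines. The transcript table of 30220 transcripts, which sets all 15 libraries on 1 scale, held 55 transcripts of these genes.

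The study used 6DT1, an established cell line of mouse mammary cancer. The cells were kept as monolayers without further treatment, and RNA was taken 24 h after they were seeded at 70% confluence. Each of 5 stably transduced lines gave 3 libraries, seeded from separate passages on successive days. In OE, mouse Smarcd1 with a C-terminal Myc tag was driven by a pol2 promoter from a lentiviral vector, and its control EV carried the empty vector; both were selected in blasticidin. KD4 and KD6 each carried a different lentiviral hairpin against Smarcd1, and their control shScr carried a scrambled hairpin; these 3 lines were selected in puromycin. Smarcd1 is an accessory subunit of SWI/SNF, so the study asked what the level of 1 remodeller subunit does to the cells; the comparison made here is whether mRNA of the ATPases of the other remodeller families differed with it. Whether a line is a clone or a pool of transduced cells is not given in the sources used here. OE, EV and shScr are 1 line each and KD is 2, so the p values below measure the spread between passages of a line. Where both hairpin lines form 1 group of 6, that spread also holds the difference between the 2 lines.

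All remodellers of these families use ATP to slide, evict or exchange nucleosomes, and they share a Snf2-type motor. CHD proteins add paired chromodomains: Chd1 and Chd2 act on transcribed chromatin, Chd4 is the motor of the NuRD deacetylase complex, and Chd7, Chd8 and Chd9 bind at enhancers and promoters. Smarca5 (SNF2H) spaces nucleosomes as the motor of ACF, CHRAC, RSF and other ISWI complexes. Ino80, Srcap and Ep400 have a split motor and work on the histone variant H2A.Z: Srcap and Ep400 place it into nucleosomes, and Ino80 slides nucleosomes and is linked to H2A.Z removal.

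Levels are given in CPM, read counts scaled by the authors to the total of the library; the depth of the libraries is not known, so no counting interval is given. Smarcd1 itself stood at 70.4, 65.0 and 61.7 CPM in OE, against 31.9, 27.2 and 29.9 CPM in EV. It stood at 9.07, 9.05 and 9.27 CPM in KD4 and 13.2, 14.8 and 15.1 CPM in KD6, against 14.5, 16.5 and 15.04 CPM in shScr. Smarcd1 thus rose in OE (log2 change 1.12, limma adjusted p = 0.00355) and fell in KD4 (log2 change -0.69, limma adjusted p = 0.000873). The line labelled KD6, however, had nearly the shScr level (log2 change -0.09, limma adjusted p = 0.701). This holds for every KD6 result below, and bears on KD and on the mean of both hairpin lines, which include KD6. Of 6 mammary epithelial markers 3 were listed, and these, the keratins Krt8, Krt18 and Krt19, summed to between 660.2 and 960.6 CPM over the 15 libraries. Epcam, Cdh1 and Krt7 of the same marker list were not listed. Of markers of other cell types, Cd68 and Pdgfra were listed in both gene tables and Kdr and Acta2 (0.854 to 2.19 CPM) in the OE and EV table, each the 1 listed gene of its marker list, and none of 3 adipocyte markers was listed. Pdgfra, a fibroblast marker, had 3.58 to 4.04 CPM in OE, against 3.20 to 3.75 CPM in EV. It had 7.12 to 7.75 CPM in KD4 and 4.42 to 5.11 CPM in KD6, against 2.54 to 3.55 CPM in shScr, so both hairpin lines lay above shScr without overlap. Cd68, a macrophage marker, had 46.8 to 68.8 CPM in OE, against 62.0 to 63.5 CPM in EV. It had 27.4 to 35.1 CPM in KD4 and 30.3 to 49.7 CPM in KD6, against 32.3 to 38.7 CPM in shScr, and in tables scaled separately all EV libraries lay above all shScr libraries. The part of these markers in the results was not tested. In these bulk libraries fewer cells of a type and less RNA per cell cannot be told apart. Among the 6 libraries of the OE and EV table, EV replicate 1 was the most distant, at -23.7 on principal component 1, where the others lay between 1.07 and 11.3.

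The promoters of 7 of the 10 genes were matched by symbol to RefSeq sequence (build GRCm38.p6, 250 bases before to 50 after the annotated start). The 4 printed belong to the 4 genes with an unadjusted p under 0.05 in OE against EV, of which Srcap and Ep400 also varied together over all libraries. Capitals mark matches on either strand to the motifs searched. The GC box was searched as GGGCGG. The CCAAT box was searched as its name spells it. The E-box was searched as CACGTG. The TATA box was searched as TATAAA. An ETS core was searched as CCGGAAG. An NRF1 core was searched as GCGCATGC. A YY1 core was searched as ATGGCGGC. No matches overlap in these 4 windows. They lie at chr7:127511733-127512032 on the plus strand for Srcap, and on the minus strand at chr5:110770668-110770967 for Ep400, chr2:119477638-119477937 for Ino80 and chr14:52257711-52258010 for Chd8.
Srcap: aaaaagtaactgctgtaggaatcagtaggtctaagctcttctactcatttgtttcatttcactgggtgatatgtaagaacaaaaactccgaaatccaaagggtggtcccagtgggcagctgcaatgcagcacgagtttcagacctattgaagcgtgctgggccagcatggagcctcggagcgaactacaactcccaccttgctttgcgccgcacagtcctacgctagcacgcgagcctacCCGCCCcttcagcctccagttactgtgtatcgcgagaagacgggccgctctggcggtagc
Ep400: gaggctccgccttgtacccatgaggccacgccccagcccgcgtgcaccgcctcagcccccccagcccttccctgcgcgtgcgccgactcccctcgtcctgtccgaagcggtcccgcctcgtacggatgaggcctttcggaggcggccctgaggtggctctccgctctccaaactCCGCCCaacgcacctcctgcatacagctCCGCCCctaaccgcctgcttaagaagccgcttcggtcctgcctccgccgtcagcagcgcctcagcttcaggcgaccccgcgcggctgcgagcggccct
Ino80: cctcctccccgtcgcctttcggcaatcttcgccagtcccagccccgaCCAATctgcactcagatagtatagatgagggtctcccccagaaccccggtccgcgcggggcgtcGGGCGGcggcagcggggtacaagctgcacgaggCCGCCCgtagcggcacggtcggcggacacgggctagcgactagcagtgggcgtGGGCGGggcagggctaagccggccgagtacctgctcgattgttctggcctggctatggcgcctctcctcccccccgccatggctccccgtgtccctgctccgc
Chd8: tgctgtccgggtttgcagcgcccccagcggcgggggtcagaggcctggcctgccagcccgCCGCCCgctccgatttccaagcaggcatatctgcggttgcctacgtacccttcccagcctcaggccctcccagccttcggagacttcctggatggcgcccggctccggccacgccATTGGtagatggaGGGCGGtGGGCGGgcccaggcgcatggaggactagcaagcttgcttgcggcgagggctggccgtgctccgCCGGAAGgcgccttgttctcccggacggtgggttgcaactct
The Srcap window held 1 GC box and the Ep400 window 2, with none of the other motifs in either. The Ino80 and Chd8 windows held 3 GC boxes and 1 CCAAT box each, and that of Chd8 also 1 ETS core. The 7 matched genes had 9 promoters, of which 8 held a GC box, where 35.7% of all 32851 promoters and 63.8% of the 10339 promoters of genes listed in the tables held it. The CCAAT box was in 4 of the 9, against 37.4% of all promoters and 37.9% of those of listed genes. The Chd4 promoters overlap, so its CCAAT box and some of its GC boxes were counted in both. The ETS core was in 1 (8.86% and 18.1%), and the NRF1 core in 1, that of Smarca5 (2.71% and 5.53%). The E-box (7.15% and 10.2%), the TATA box (13.6% and 6.91%) and the YY1 core (2.24% and 5.05%) were in none of the 9. These matches describe the letters only.

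Set per kilobase of mRNA, so that genes can be compared with each other, Chd4 had by far the highest level, 85.2 to 108 CPM per kb over the 15 libraries with a median of 98.5. Chd1 (24.3 to 30.4, median 26.6), Smarca5 (22.3 to 28.5, median 24.0) and Chd8 (19.2 to 27.0, median 23.7) followed. These neighbours were not told apart by their spread, since Chd1 and Smarca5 separated in 1 of 5 lines and Smarca5 and Chd8 in 1 of 5. Ep400 had a median of 15.6 and Chd2 of 14.1 CPM per kb, and they separated in 2 of 5 lines. Ino80 (median 10.4), Chd7 (median 8.60) and Chd9 (median 6.66) had the lowest levels, in that order, with Ino80 above Chd7 in all libraries of every line and Chd7 above Chd9 in 3 of 5 lines. Srcap was left out of this order because the annotation used for mRNA length (NCBIM37) holds it as 2 partial gene models. All of the other 9 have long mRNAs, between 6113 bases (Smarca5) and 11565 bases (Chd9).

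**Figure D1:**
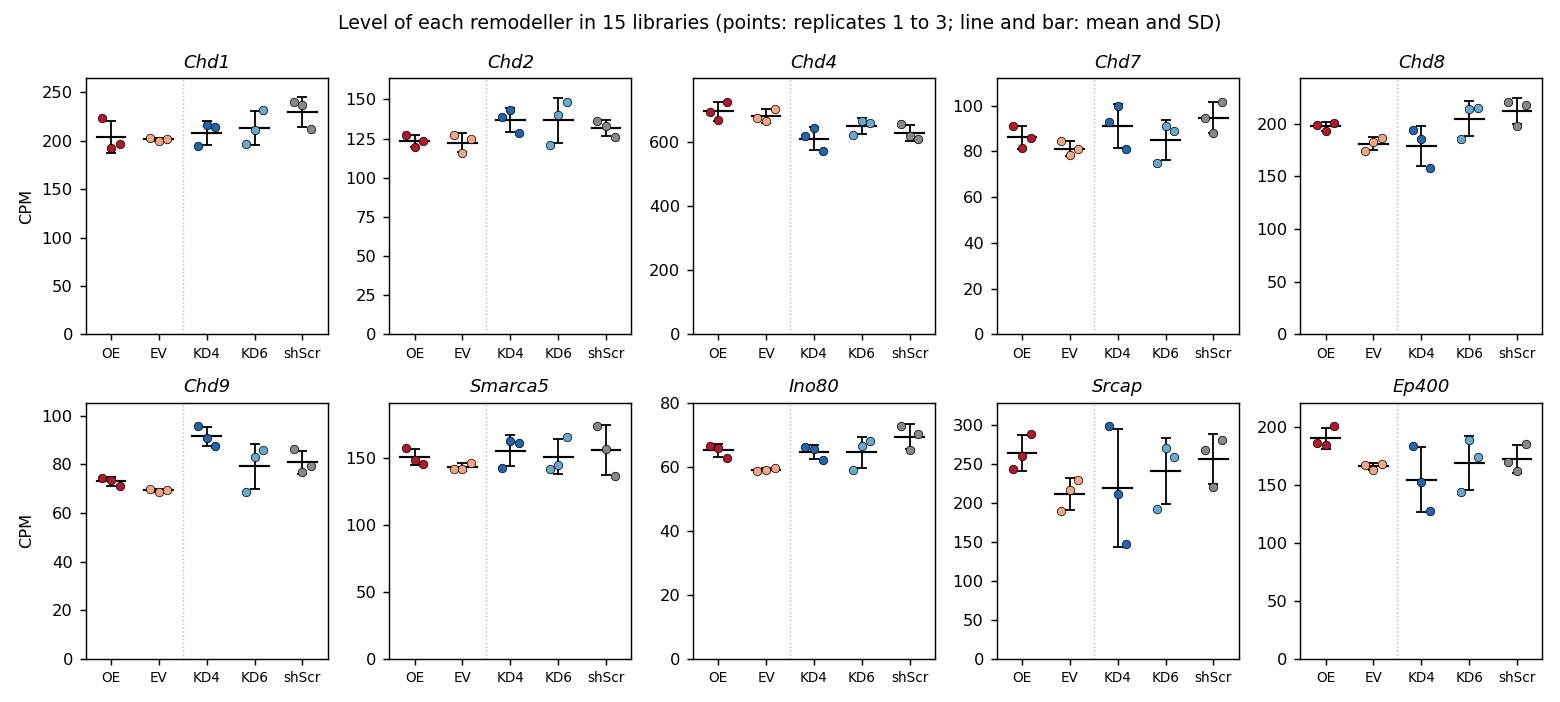
Level of each of the 10 remodellers in CPM (linear axis from 0) in the 3 libraries of OE, EV, KD4, KD6 and shScr, with the mean and SD of each line; the dotted line separates the gene tables. Srcap has the widest spread, with 299.1, 212 and 147.8 CPM in the KD4 replicates, while Chd4 lies between 570.5 and 724 CPM in all 15 libraries.

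In OE against EV all 10 remodellers had a higher mean in OE, against 53.8% of all genes. None passed the threshold of an adjusted p under 0.05 (limma on log2(CPM + 1), Benjamini-Hochberg over all genes). Of all genes, 0.00741% passed there, which is Smarcd1 alone. At an unadjusted p under 0.05 and higher in OE were 4 of the 10, against 7.68% of all genes, and 5 of the 10 had all OE libraries above all EV libraries, against 11.3% of all genes. The median log2 change was 0.08 for the 10 genes and 0.01 for all genes.

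Srcap had 243.9, 260.3 and 289 CPM in OE, against 189.9, 217 and 229.8 CPM in EV (change of 0.32 on the log2 scale with an SE of 0.08, unadjusted p = 0.00517 and adjusted p = 0.240 with limma, 3 libraries each). Its groups did not overlap, and replicate 3 was the highest library of both lines. Ep400 had 186, 184 and 200.7 CPM in OE, against 167, 163 and 168 CPM in EV (change of 0.20 on the log2 scale with an SE of 0.05, unadjusted p = 0.00309 and adjusted p = 0.222 with limma). Every OE library was above every EV library. Ino80 had 66.6, 66.2 and 63.0 CPM in OE, against 58.9, 59.2 and 59.7 CPM in EV (change of 0.14 on the log2 scale with an SE of 0.05, adjusted p = 0.302 with limma), again without overlap.

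Among the CHD genes, Chd8, known for its link to beta-catenin and to autism, had 199.0, 193 and 200.8 CPM in OE, against 174, 182.5 and 187 CPM in EV (change of 0.13 on the log2 scale with an SE of 0.04, adjusted p = 0.320 with limma). Chd9 had 74.3, 73.7 and 71.1 CPM in OE, against 69.9, 68.7 and 69.6 CPM in EV (change of 0.07 on the log2 scale, adjusted p = 0.515 with limma). Both pairs of groups were separate. The groups of the other 5 genes overlapped: log2 changes were 0.08 for Chd7, mutated in CHARGE syndrome in people, 0.07 for Smarca5, 0.03 for Chd4, 0.02 for Chd1 and 0.01 for Chd2. The 95% intervals of the change were -0.09 to 0.14 for Chd4, -0.12 to 0.15 for Chd1, -0.11 to 0.13 for Chd2 and -0.03 to 0.17 for Smarca5. No change and changes of either sign within these bounds were compatible with the data.

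**Figure D2:**
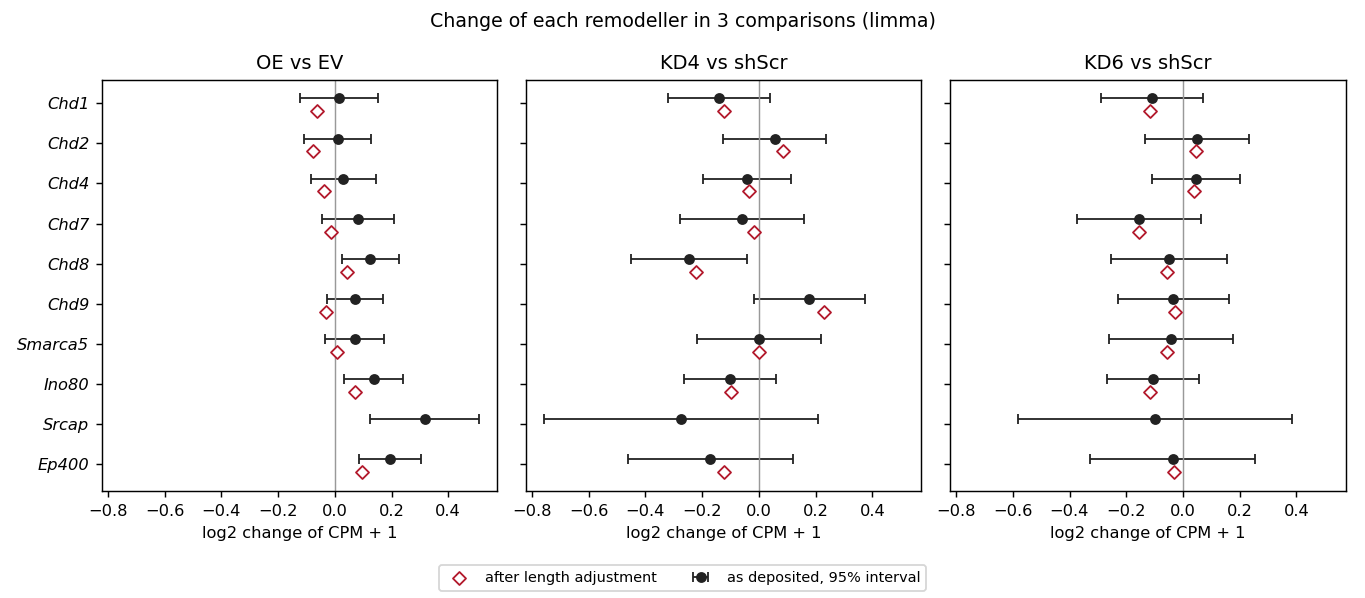
Log2 change of CPM + 1 of each remodeller in OE against EV, KD4 against shScr and KD6 against shScr, with 95% limma intervals (filled points), and the change after the length adjustment described in the text (open diamonds, 9 genes). All 10 filled points lie above 0 in OE against EV, and 5 of the 9 diamonds lie below 0.

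Long mRNAs as a class stood higher in OE. Of the 1283 genes with an mRNA of 6000 bases or more, 82.8% had a higher mean in OE, with a median log2 change of 0.07, and 28.9% had all OE libraries above all EV libraries. At an unadjusted p under 0.05 with limma and higher in OE were 22.4% of this class. Of the 1685 genes with an mRNA under 1500 bases, 25.2% had a higher mean in OE, with a median log2 change of -0.09. Within the long class, 11.8% of genes had a change as high as that of Ep400 or higher, 23.8% as that of Ino80, 27.8% as that of Chd8 and 79.1% as that of Chd2. When the trend with mRNA length was taken off within each library, a change made after the data were seen, the log2 changes became 0.10 for Ep400 (limma adjusted p = 0.491), 0.07 for Ino80 (adjusted p = 0.619), 0.04 for Chd8 (adjusted p = 0.739) and 0.01 for Smarca5, and were below 0 for Chd9 (-0.03), Chd7 (-0.01), Chd4 (-0.04), Chd1 (-0.06) and Chd2 (-0.08). Srcap has no length here and was not adjusted. After the adjustment 4 of the 9 genes were above 0 and 5 below, and none passed, against 0.00913% of the genes with a length.

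**Figure D3:**
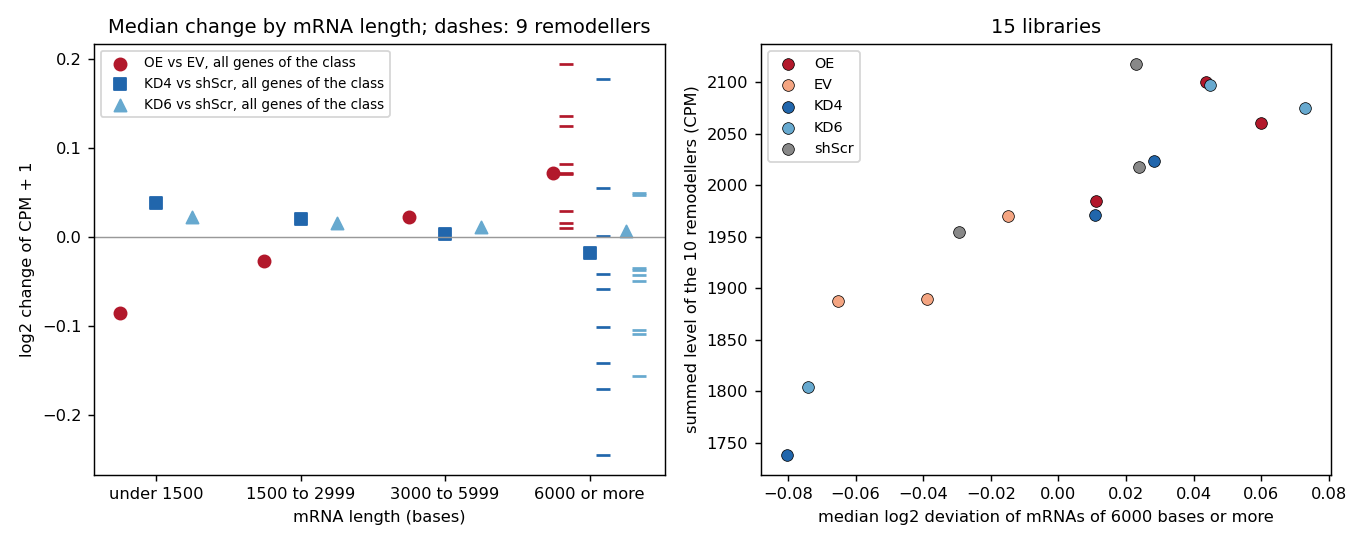
Left, median log2 change of all genes in 4 classes of mRNA length in OE against EV, KD4 against shScr and KD6 against shScr, with dashes for the 9 remodellers with a known length; right, summed CPM of the 10 remodellers against the median log2 deviation of mRNAs of 6000 bases or more, for 15 libraries. In OE against EV the class medians run from -0.09 for mRNAs under 1500 bases to 0.07 for those of 6000 bases or more. The libraries with the lowest sums, 1738 and 1804 CPM, have the lowest long-mRNA medians of KD4, KD6 and shScr. Deviations on the right are from the mean of OE and EV for these lines, and of KD4, KD6 and shScr for the others.

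With both hairpins as 1 group of 6, none of the 10 remodellers passed in KD against shScr, where 2.66% of all genes did. This group includes the KD6 libraries, which had nearly the shScr level of Smarcd1. None had an unadjusted p under 0.05, against 17.3% of all genes, and none separated KD from shScr, against 10.8%. Means were lower in KD for 7 genes and higher for Chd2, Chd4 and Chd9, with log2 changes between -0.19 (Srcap) and 0.07 (Chd9) and limma adjusted p between 0.394 (Chd1) and 0.990 (Chd4). For Chd4, the NuRD motor and the most abundant of the 10, the interval was -0.14 to 0.14.

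The hairpin lines were then fitted as separate groups. In KD4, which had the lower Smarcd1 level, 2 of the 10 genes did not overlap with shScr, against 29.5% of all genes. None passed, against 9.58% of all genes, and 1 had an unadjusted p under 0.05 with limma, against 24.7%. Chd8 had 194, 185 and 158 CPM in KD4, against 220.9, 198 and 217 CPM in shScr (change of -0.25 on the log2 scale with an SE of 0.09, unadjusted p = 0.0229 and adjusted p = 0.130 with limma). Without KD4 replicate 3, its lowest library, the change of Chd8 was -0.16 (adjusted p = 0.345). Chd9 had the opposite sign, with 95.8, 91.0 and 87.7 CPM in KD4, against 86.4, 77.1 and 79.2 CPM in shScr (change of 0.18 on the log2 scale with an SE of 0.09, adjusted p = 0.248). In KD6, 0 of the 10 genes separated from shScr, against 22.2% of all genes, and 0 passed, against 2.91%; 0 had an unadjusted p under 0.05 with limma, against 15.3%.

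The difference between the hairpin lines was tested itself. Chd9 had 68.7, 83.0 and 85.9 CPM in KD6, below all 3 KD4 libraries (log2 change of KD6 over KD4 -0.21, SE 0.09, unadjusted p = 0.0365 and adjusted p = 0.244 with limma). Chd8 had 186, 214 and 215 CPM in KD6, with 1 library inside the KD4 range (log2 change 0.20, adjusted p = 0.309). No remodeller passed in KD6 against KD4, where 4.91% of all genes did, and Chd9 alone had an unadjusted p under 0.05 with limma, against 17.4% of all genes. Without KD6 replicate 1 the change of Chd9 was -0.11 (adjusted p = 0.486), and without KD4 replicate 3 that of Chd8 was 0.11 (adjusted p = 0.609). After the length adjustment, chosen after the data were seen, Chd8 (-0.22, adjusted p = 0.0382) and Chd9 (0.23, adjusted p = 0.0317) passed in KD4 against shScr, where 14.9% of all genes with a length passed under the same adjustment, and Chd9 (-0.26, adjusted p = 0.0277) in KD6 against KD4, where 8.57% did. The class of 6000 bases or more had median log2 changes of -0.02 in KD4, 0.01 in KD6 and 0.03 in KD6 against KD4.

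Between passages of a line Srcap varied most. It had the highest coefficient of variation of the 10 genes in each of the 5 lines, from 8.65% in OE to 34.6% in KD4, and in KD4 it was above 99.0% of the 4039 genes with a mean of at least 50 CPM. Its values were 299.1, 212 and 147.8 CPM in KD4 and 192, 271 and 259 CPM in KD6, against 268, 220.2 and 281 CPM in shScr. The KD4 replicates alone spanned the range of all 15 libraries. This spread gave a 95% interval of -0.76 to 0.21 for the log2 change of Srcap in KD4. No change and changes of either sign within these bounds were compatible with the data. Ep400, the other depositor of H2A.Z, had 183.5, 152 and 128 CPM in KD4 and 144, 189 and 174 CPM in KD6, against 170.0, 162 and 185 CPM in shScr.

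Srcap and Ep400 moved together over the libraries. In all 5 lines the library with the highest Srcap level was also the one with the highest Ep400 level, and in 3 of 5 lines the lowest was shared. Chd1 and Chd2 also shared the highest library in all 5 lines. Over the 15 libraries, with levels summed over transcripts, Pearson's r of Srcap and Ep400 was 0.91, the highest of the 45 pairs of the 10 genes. It is given as a description since the libraries share lines and library properties. The next pairs were Chd1 and Smarca5 (0.74) and Chd2 and Chd9 (0.73), and Chd4 and Chd9 had the lowest value (-0.62). KD4 replicate 3 and KD6 replicate 1, which had the lowest Srcap and Ep400 of their lines, were also the libraries with the lowest sum of all 10 genes (1738 and 1804 CPM, against 1888 to 2118 CPM in the other 13). In these 2 libraries mRNAs of 6000 bases or more had a median log2 deviation of -0.08 and -0.07, against -0.03 to 0.07 in the other libraries of KD4, KD6 and shScr. These deviations are from the mean of KD4, KD6 and shScr. Those of OE and EV were taken from the mean of OE and EV, so the 2 sets share no zero. The part of mRNA length in the spread of Srcap and Ep400 was not tested.

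**Figure D4:**
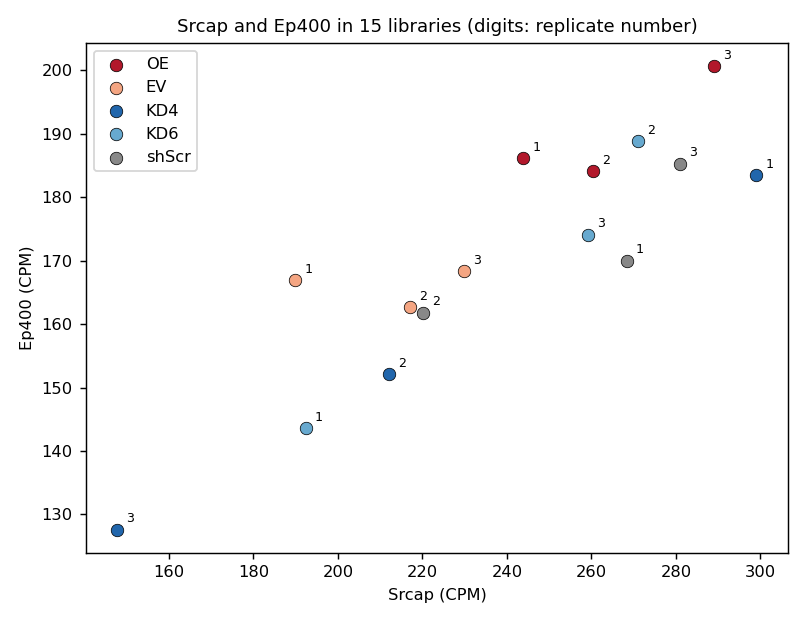
Ep400 against Srcap in CPM for the 15 libraries, coloured by line, with the replicate number beside each point. KD4 replicate 3 lies lowest, at 147.8 CPM Srcap and 128 CPM Ep400, and KD4 replicate 1 has the highest Srcap value, 299.1 CPM.

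Genes outside the 10 whose pattern over the 15 libraries was most like their mean were Ash1l, a histone H3 lysine methyltransferase (Pearson's r 0.97), ENSMUSG00000107962 (0.96), Eif4enif1, which carries the cap-binding factor eIF4E into the nucleus (0.94), ENSMUSG00000108460 (0.93) and R3hdm1 (0.93). The 10 genes themselves had r between 0.28 (Smarca5) and 0.86 (Ino80) with that mean, which contains them. Genes with an mRNA of 6000 bases or more had a median r of 0.29 and those under 1500 bases of -0.38. These are descriptions over libraries of 5 lines, chosen as the highest of 13142 genes.

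The control lines EV and shScr differ in vector and in selection drug. They also differed in Smarcd1, with a mean of 29.4 CPM in EV, against 15.3 CPM in shScr as sums over transcripts. Vector, drug and Smarcd1 level cannot be told apart here. EV and shScr were compared on levels summed over transcripts. These sums do not match the gene values everywhere (Chd8 in EV replicate 1 had 203 CPM as a sum and 174 CPM as a gene). Ino80 had 59.1, 58.7 and 59.9 CPM in EV, against 69.5, 64.4 and 69.5 CPM in shScr, and fell by 0.19 on the log2 scale (SE 0.06, limma adjusted p = 0.0431). It was the 1 remodeller to pass, where 15.8% of all genes did. Over 15 fits that left out 1 library the adjusted p lay between 0.0245 and 0.129, and the call was kept in 5; it was lost without any EV library, without shScr replicate 1 or 3, without KD4 replicate 2, without KD6 replicate 2 and without each OE library. Ino80, Chd1, Chd7 and Chd9, 4 of the 10, were lower in all EV libraries than in all shScr libraries, against 17.8% of all genes. Chd9 (log2 change -0.19, adjusted p = 0.0514), Chd1 (-0.19, adjusted p = 0.0883) and Chd7 (-0.18, adjusted p = 0.108) did not pass. Chd4 had the opposite sign, with 669, 659 and 699 CPM in EV, against 650.4, 615 and 609 CPM in shScr (log2 change 0.11, adjusted p = 0.196). Long mRNAs were lower in EV than in shScr as a class, with a median log2 change of -0.04 for 6000 bases or more and 0.14 for under 1500 bases. By gene level, in tables scaled separately, Ino80 lay between 63.0 and 66.6 CPM in OE and between 58.9 and 59.7 CPM in EV, where KD4, KD6 and shScr together ran from 59.2 to 72.9 CPM.

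When the change in OE was set against the mean change of both hairpin lines in 1 fit, none of the 10 passed, where 1.9% of all genes did, and 1 had an unadjusted p under 0.05 with limma, against 18.7%. Ino80 had a difference of 0.21 on the log2 scale (SE 0.08, unadjusted p = 0.0194 and adjusted p = 0.180 with limma). Ep400 (0.32, adjusted p = 0.287) and Srcap (0.56, adjusted p = 0.307) had larger differences with a wider spread, and the interval for Srcap was -0.05 to 1.17.

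At the level of transcripts none of the 55 passed in OE against EV, where 0% of 30220 transcripts did, nor in KD against shScr, where 2.45% did. An unadjusted p under 0.05 with limma was found for 5 of the 55 in each comparison, against 6.61% of all transcripts in OE against EV and 16.6% in KD against shScr. In OE the smallest p belonged to minor transcripts: ENSMUST00000132794 of Chd4 had 4.36, 4.03 and 4.42 CPM in OE, against 2.83, 3.03 and 3.23 CPM in EV (change of 0.39 on the log2 scale, limma adjusted p = 0.710), which is under 1% of Chd4 in every line. ENSMUST00000210887 of Chd9 (log2 change 0.38) and ENSMUST00000147309 of Chd8 (0.33) had the same adjusted p, 0.710. In KD they were ENSMUST00000185401 of Srcap (-0.45, adjusted p = 0.113), ENSMUST00000199135 of Chd8 (-0.29, 0.180) and ENSMUST00000209203 of Chd9 (0.53, 0.185). The last had 15.6, 14.2 and 9.53 CPM in KD4 and 8.88, 8.64 and 8.84 CPM in KD6, against 7.07, 5.66 and 8.77 CPM in shScr, and its KD4 libraries all lay above the others. The other 5 of these 6 transcripts were under 10 CPM in all libraries.

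Transcript use did not pass for any of the 9 genes with at least 2 transcripts, in OE against EV (Simes test of limma, smallest adjusted p = 0.434 for Chd9, 0.834% of 7077 genes passed) or in KD against shScr (smallest adjusted p = 0.433 for Chd9, 2.25% passed). Ino80 had 1 transcript. The main transcript was the same in every line for 9 of the 10 genes. It took 86.1% to 90.7% of Chd1, 83.1% to 87.1% of Chd2 and 75.6% to 80.2% of Chd7 as line means, but 38.8% to 43.6% of Chd9, whose mRNA was spread over 6 transcripts. Srcap was the exception: ENSMUST00000187040 held 42.8% and 48.2% of it in OE and EV, and 39.7%, 39.4% and 37.1% in KD4, KD6 and shScr, where ENSMUST00000190390 was larger (42.8%, 41.3% and 43.2%). These are line means, and in single libraries the share of ENSMUST00000187040 ran from 28.4% to 54.0%. Whether it differed between OE and EV and the other lines was not tested.

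The partners of these ATPases were described from 9 fixed lists, of whose 71 genes 69 were measured. In OE against EV none passed and 12 had an unadjusted p under 0.05, against 13% of all genes, with means higher in 37 and lower in 32, where 53.8% of all genes had a higher mean; the median log2 change of the 69 was 0.01. Of the 12 NuRD partners of Chd4, 9 had a higher mean; the smallest p was that of Gatad2b, a scaffold subunit, with 159, 157 and 189 CPM in OE, against 132, 127 and 145 CPM in EV (change of 0.32 on the log2 scale, limma adjusted p = 0.235). Of the TIP60-EP400 complex, Trrap, its large scaffold, had 167, 164 and 176 CPM in OE, against 142, 138 and 158 CPM in EV (0.21, adjusted p = 0.274). Pole3, the histone-fold subunit of the CHRAC complex of Smarca5, stood lower, with 46.9, 48.1 and 48.1 CPM in OE, against 60.2, 53.2 and 54.9 CPM in EV (-0.23, adjusted p = 0.228). H2az1, which encodes H2A.Z itself, had 58.3, 61.8 and 62.2 CPM in OE, against 81.6, 60.5 and 73.8 CPM in EV, with overlap (-0.23, adjusted p = 0.376). The smallest p of the other lists gave a log2 change of 0.15 for Ino80d, 0.12 for Chd5, -0.10 for Actl6a, -0.10 for Vps72 and -0.08 for Ercc6l, with adjusted p between 0.355 and 0.776.

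Against shScr 1 partner gene passed in KD, in KD4 and in KD6, and it was the same gene each time, Chd3, the closest relative of Chd4 and an alternative motor of NuRD. Chd3 had 219, 220.4 and 189.5 CPM in KD4 and 217.5, 234 and 232 CPM in KD6, against 277, 299.8 and 300.3 CPM in shScr. Every library of both hairpin lines lay below every shScr library. Chd3 fell by 0.42 on the log2 scale in KD (SE 0.07, limma adjusted p = 0.0122), by 0.48 in KD4 (adjusted p = 0.00321) and by 0.36 in KD6 (adjusted p = 0.0313), with no call for KD6 against KD4 (0.12, adjusted p = 0.458). It was also lower in EV than in shScr, with 243, 221 and 244 CPM in EV, against 255, 288 and 284.5 CPM in shScr as sums of transcripts (log2 change -0.22, adjusted p = 0.0425). The shScr line was thus the high line for Chd3, and a change by both Smarcd1 hairpins cannot be told apart from a difference of shScr. The KD call was lost without shScr replicate 2 (adjusted p = 0.0825) or 3 (0.0690), the KD6 call in 6 of 9 fits that left out 1 library, and the EV call in 8 of 15, while the KD4 call was kept in all 9. The change of Chd3 in OE was above its change in KD by 0.40 on the log2 scale (limma adjusted p = 0.0405), a call kept in 3 of 15 such fits; this fit used sums over transcripts.

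**Figure D5:**
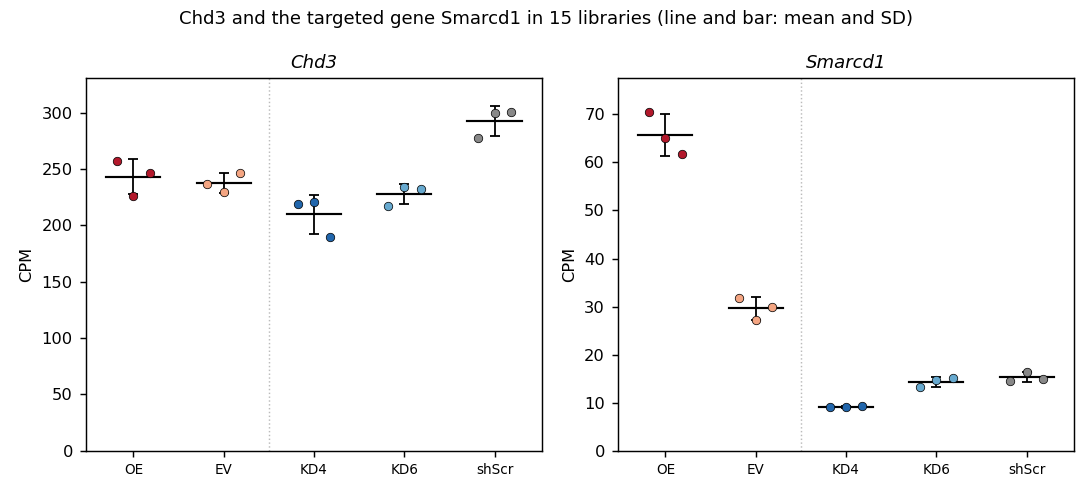
Level of Chd3 and of the targeted gene Smarcd1 in CPM (linear axis from 0) in the 3 libraries of each line, with mean and SD; the dotted line separates the gene tables. Chd3 lies between 277 and 300.3 CPM in shScr and between 189.5 and 234 CPM in KD4 and KD6, while Smarcd1 is lower than in shScr in KD4 (9.05 to 9.27 CPM) and overlaps with it in KD6.

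Mta2, a NuRD subunit, had 128, 123 and 115 CPM in KD6, below both KD4 (143, 145 and 156 CPM) and shScr (143, 157 and 146 CPM); it fell by 0.28 against KD4 (limma adjusted p = 0.0415), a call lost in each of 9 fits that left out 1 library (0.0522 to 0.146), and stood at -0.29 against shScr (adjusted p = 0.0510). Outside the threshold were Baz2b, an ISWI partner, at 51.1, 56.1 and 49.8 CPM in KD4, against 43.7, 44.9 and 44.6 CPM in shScr (0.23, adjusted p = 0.0595), and Hltf, a Snf2-like DNA translocase, at 45.4, 54.0 and 51.2 CPM in KD4, against 71.6, 64.9 and 56.1 CPM in shScr (-0.35, adjusted p = 0.0596). Between the control lines 6 of the 69 partners passed in EV against shScr, where 15.8% of all genes did: besides Chd3, the H2A.Z gene H2az1 (log2 change 0.45), the helicase Hells (0.36) and the histone chaperone Rbbp7 (0.30) rose, and Mrgbp of the TIP60-EP400 complex (-0.26) and Ercc6 (-0.25) fell, with limma adjusted p between 0.0227 and 0.0425.

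Of the 69 partners, 8 had an unadjusted p under 0.05 in KD, 13 in KD4 and 7 in KD6 against shScr, where 17.3%, 24.7% and 15.3% of all genes did. For lists without a passing member the gene with the smallest p is given as a value. In KD against shScr these were Hltf (-0.29), Tfpt of the INO80 complex (0.23), the ISWI partner Baz1a (-0.22), Mta1 (0.19), Mrgbp (-0.15), H2az2 (0.14), Znhit1 of the SRCAP complex (0.14) and Ruvbl2 (-0.08), as log2 changes with limma adjusted p of 0.134 or more. In KD4, besides Baz2b and Hltf, they were Trrap (-0.32), H2az2 (0.26), Uchl5 (-0.19), Rbbp4 (0.18), Vps72 (0.15) and Ruvbl1 (-0.12). In KD6, besides Mta2, they were Tfpt (0.27), Hltf (-0.23), Baz1a (-0.21), Mrgbp (-0.13), Znhit1 (0.12), Anp32e (0.11) and Yeats4 (-0.08). In KD6 against KD4 they were Trrap (0.37), H2az1 (-0.29), Rsf1 (0.24), Vps72 (-0.21), Ercc6 (0.20), Uchl5 (0.20) and Yeats4 (-0.09), besides Chd3. In EV against shScr they were Pole3 (0.33), Ruvbl2 (0.29), Ino80e (0.26) and Vps72 (0.23). For the change in OE above that in KD they were Hdac1 (0.51), Tfpt (-0.39), H2az1 (-0.36), Bptf (0.33), Hltf (0.31), Trrap (0.30), Znhit1 (-0.29) and Actl6a (-0.18).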

How the data were processed

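RNA of adequate integrity was made into messenger RNA libraries and sequenced on a HiSeq2500. STAR 2.7.8a and mm39 appear in the submitters' processing notes; the study's methods describe other tools, and which of them gave the values is unknown. The deposited values are CPM, calculated by the authors from fractional counts after a filter near 1 CPM, so depth is unknown. Of the transcript table, 15 value columns match no label and were not used.

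After transformation to log2(CPM + 1), groups were compared in limma (3.58.1, R 4.3.3; intensity trend), with p values adjusted over all features. KD pooled both hairpins, and the hairpin lines were also fitted as separate groups. Transcripts, their shares (diffSplice, Simes) and sums over transcripts were fitted over all 5 lines. The length adjustment took a lowess curve on log10 mRNA length (NCBIM37 gene models) off each library. The fit was tested on simulated data. Changes of 0.25, 0.5 and 1 on the log2 scale were planted in genes with a mean of at least 50 CPM. Noise was drawn independently for each gene and library, without a trend with mRNA length. Of genes changed by 0.5, 77.6% were called in OE against EV and 71.6% in KD against shScr. Of genes changed by 0.25, 39.4% and 18.2% were called. In OE against EV 67 genes were changed by 1, where 1 gene passed in the data, so these shares may be too high for the data.

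The 10 genes, the partner lists and the tests were chosen with earlier results of these data known. Named were all 10 genes, Smarcd1, partners that passed (up to 4 per list and comparison) or else the partner of a list with the smallest p, the 3 transcripts with the smallest p and the 5 genes most like the mean of the 10. Alternatives were a pseudocount of 0.1, quantile normalization, a replicate block and leaving out each library. Fits on gene values, but not those on transcripts or their sums, also had median-of-ratios scaling, a minimum mean of 5 CPM and no trend. For KD against shScr the mean of the hairpins was added. The length adjustment and the alternatives for Chd3 and Mta2 were added after the data were seen.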

Additional observations from a re-analysis of the deposited data

Results flagged for a closer look

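Among the 6 KD libraries Chd3 had 1 that stood far from the others, KD4 replicate 3 at 189.5 CPM. It was separated from the next by 0.632 of the whole range, above Dixon's 95% critical value, and 15 genes were looked at. In a group from 1 population chance gives such a library in about 1 in 20 groups. The KD libraries come from 2 lines, so this rate need not apply here. Without it the KD change of Chd3 was -0.38 on the log2 scale (limma adjusted p = 0.00832). Between overexpression and knockdown, fitted on sums over transcripts, the change of Chd3 differed by 0.40 on the log2 scale (limma adjusted p = 0.0405), and that of Smarcd1, the targeted gene, by 0.86. As such sums Smarcd1 had 37.4 ± 0.96 CPM in OE, against 29.4 ± 2.74 CPM in EV (SD, n = 3 each), while by gene it had 65.7 ± 4.40 CPM in OE, against 29.7 ± 2.37 CPM in EV; the sums thus held less of the difference in Smarcd1 than the gene table. Between the hairpin lines, KD6 over KD4, Smarcd1 differed by 0.60 and Mta2 by -0.28 (limma adjusted p = 0.0415 for Mta2). None of the 10 remodellers met these criteria.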

How the results depend on the processing

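Fits on transcripts and on their sums, among them EV against shScr, had only the pseudocount, quantile normalization, the replicate block and left-out libraries as alternatives. The Ino80 call in EV against shScr was thus not adjusted for mRNA length. The count of remodellers that passed was 0 in each comparison except EV against shScr. It stayed 0 under each alternative that was run, except these. The length adjustment gave 2 of 9 in KD4 against shScr and 1 of 9 in KD6 against KD4, where it called 14.9% and 8.57% of all genes with a length. In EV against shScr the count was 1, and it became 3 with quantile normalization (14.8% of all genes), 0 with the replicate block, and 0 to 2 when a library was left out, where Chd9 passed in 2 of 15 fits and Ino80 in 5. Same-numbered libraries did not deviate together within the gene tables (correlations between -0.33 and 0.26) or, on sums over transcripts, between EV and shScr (-0.26 to -0.076), and no source says that a number marks a shared day. With the replicate block the Chd3 adjusted p with limma was 0.0503 in KD, 0.105 in KD6, 0.0942 in EV against shScr and 0.130 for OE above KD, and that of Mta2 0.148, while Chd3 kept its call in KD4 (0.0167). With no trend Chd3 in KD6 (0.0504) and Mta2 in KD6 against KD4 (0.0737) were no longer called.

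Over 1529 alternatives 52 turned a direction, none in a value that passed there. With quantile normalization these were Chd1 -0.00695 and Chd2 -0.000342 in OE against EV and Chd4 -0.00541 in KD. With median-of-ratios scaling they were Chd4 -0.00198 in KD and Smarca5 -0.00406 in KD4. With the length adjustment, in OE against EV, they were Chd1 -0.064, Chd7 -0.013, Chd9 -0.030, Chd4 -0.040 and Chd2 -0.077. The others came from leaving out 1 library, with these ranges of log2 change. In OE against EV they were Chd1 -0.051 to 0.056, Chd4 -0.0015 to 0.058, Chd2 -0.03 to 0.039. In KD against shScr they were Smarca5 -0.11 to 0.061, Chd4 -0.018 to 0.034. In KD4 against shScr they were Smarca5 -0.091 to 0.083, Chd7 -0.13 to 0.024, Chd4 -0.0799 to 0.0053. In KD6 against shScr they were Ep400 -0.12 to 0.075, Smarca5 -0.13 to 0.0397, Chd8 -0.10 to 0.019, Srcap -0.20 to 0.055, Chd9 -0.10 to 0.064, Chd2 -0.014 to 0.13. In KD6 against KD4 they were Chd1 -0.03 to 0.089, Ino80 -0.042 to 0.057, Srcap -0.0798 to 0.43, Chd2 -0.069 to 0.078. In EV against shScr they were Ep400 -0.10 to 0.0032, Chd8 -0.10 to 0.037. For the change in OE above that in KD they were Smarca5 -0.013 to 0.16, Chd4 -0.0032 to 0.059.

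Counts of all genes called moved more. Leaving out a library gave 92 to 397 genes in KD (364 with all), 641 to 1309 in KD4 (1310), 151 to 419 in KD6 (398), 298 to 611 in KD6 against KD4 (671), 971 to 2401 in EV against shScr (2078), 91 to 411 for OE above KD (250) and 0 to 1 in OE against EV (1, and 3 with quantile normalization). The replicate block gave 114, 626, 179, 349, 990 and 43 in the first 6 of these, and the mean of the hairpins gave 847 in KD. Transcript calls in KD were 740, and 263 to 716 without 1 library and 181 with the block. Share calls were 59 in OE (14 to 124; block 11) and 159 in KD (80 to 217; block 49).

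Depth is unknown, so no counting error can be given for low transcripts. Changes of 0.25 on the log2 scale were mostly not recovered in simulation.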
